A study of Mus musculus with 6 samples.

Results

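The 31 genes described here mark neurons of the forebrain that lie next to the corpus callosum, the white matter tract from which the RNA was taken. Of these, 23 mark the projection neurons of the striatum, below the tract, and 8 mark excitatory neurons of the cortex, above it. They were taken by gene symbol, and they were selected on their levels in these same libraries, in cuprizone against control and in single libraries. Their own values in that comparison are therefore a description. All 31 were among the 39017 genes of the deposited table, and all 31 passed the filter on low counts that left 16569 genes for testing, each with at least 12 counts in every library.

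All 6 libraries hold RNA that was pulled down with an antibody against the HA tag from corpus callosum of C57BL/6 mice carrying RiboTag and Olig1-Cre. RiboTag adds the tag to the ribosomal protein RPL22 wherever Cre has been active, and the Olig1 gene drives Cre, which is meant to tag the ribosomes of the oligodendrocyte lineage. In the cuprizone group the mice received a diet with 0.2% cuprizone, a copper chelator that damages oligodendrocytes (replicates 30, 31 and 32), and in the control group, titled as vehicle, they did not (replicates 24, 26 and 27). The protocol speaks of females of 8 to 10 weeks, of 6 or 9 weeks on cuprizone and of 3 weeks of recovery, and it does not say at which of these stages the cuprizone libraries were taken. Nothing in the labels says whether each library is 1 animal, so the p-values measure only the spread between these samples, which may be technical. No library of RNA from before the pull-down was analysed here, so the share of any transcript that came from tagged ribosomes cannot be given.

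Totals ran from 19455245 to 22381307 counts in the cuprizone libraries and from 18549360 to 18771737 counts in the control libraries. Levels are given as CPM, the count scaled to the library size after TMM normalization. Transcripts of the labelled cell type were present, since all 10 oligodendrocyte markers were detected in every library. They had a summed level of 7962 to 14822 CPM in cuprizone libraries and 58323 to 79676 CPM in control libraries. Neuron transcripts were present as well, since none of 26 pan-neuronal markers was at 0 in any library. Together these reached 7052 to 12659.8 CPM in cuprizone libraries and 5638 to 8531 CPM in control libraries. Cuprizone replicate 32 stood apart from its group, and list medians that depend on it are also given without it.

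Most neurons of the striatum are inhibitory projection neurons that receive dopamine from the midbrain and glutamate from the cortex. Those of the direct pathway carry the dopamine receptor Drd1, which raises cAMP through the G protein subunit made by Gnal and the cyclase made by Adcy5. Those of the indirect pathway carry Drd2, which lowers cAMP, together with the adenosine receptor Adora2a, which raises it. Cortical excitatory neurons use glutamate, which they load into vesicles with the transporter made by Slc17a7, and they are ordered in layers that differ in transcription factors such as Tbr1, Rorb and Cux2. The corpus callosum itself is made of their axons and of glia. Some of the genes are not confined to one kind of neuron: Bcl11b, Foxp1 and Meis2 are also known from other forebrain neurons and Penk and Tac1 from some interneurons.

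Promoter sequences were read for 26 of the 31 genes from RefSeq (build GRCm38.p6), as windows of 300 bases from 250 before to 50 after a start site, 36 windows in all. The 4 below are shown because their motifs belong to the cAMP, retinoic acid and neurogenic pathways that these neurons use. Each is written in the direction of its gene, and capitals mark a motif that was searched on both strands. The window of Gpr6 (chr10:41072241-41072540, minus strand) holds a cAMP response element, TGACGTCA, and that of Tac1 (chr6:7554811-7555110, plus strand) a variant of it, TGCGTCA. The window of Rarb (chr14:16575427-16575726, minus strand) holds a retinoic acid response element, searched as a direct repeat of GNTCA, 6 bases of any kind and GNTCA. The window of Neurod2 (chr11:98329596-98329895, minus strand) holds an E-box, CAGATG, the kind of site that neurogenic bHLH factors bind.
Gpr6: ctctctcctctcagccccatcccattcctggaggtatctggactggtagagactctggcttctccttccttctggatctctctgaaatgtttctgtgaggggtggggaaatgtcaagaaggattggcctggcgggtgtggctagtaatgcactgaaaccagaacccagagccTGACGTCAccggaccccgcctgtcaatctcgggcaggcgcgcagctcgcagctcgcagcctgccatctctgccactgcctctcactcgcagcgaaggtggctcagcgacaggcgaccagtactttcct
Tac1: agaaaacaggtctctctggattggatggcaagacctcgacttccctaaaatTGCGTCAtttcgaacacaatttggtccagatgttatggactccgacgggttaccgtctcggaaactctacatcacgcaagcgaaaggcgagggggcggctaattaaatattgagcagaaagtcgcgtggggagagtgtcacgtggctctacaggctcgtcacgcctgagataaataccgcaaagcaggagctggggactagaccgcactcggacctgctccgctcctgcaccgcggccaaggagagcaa
Rarb: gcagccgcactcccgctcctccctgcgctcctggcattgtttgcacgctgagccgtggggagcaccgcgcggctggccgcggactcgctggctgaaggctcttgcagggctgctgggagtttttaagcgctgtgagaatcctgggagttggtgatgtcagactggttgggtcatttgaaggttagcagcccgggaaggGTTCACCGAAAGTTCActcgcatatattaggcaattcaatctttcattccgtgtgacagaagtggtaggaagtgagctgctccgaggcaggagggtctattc
Neurod2: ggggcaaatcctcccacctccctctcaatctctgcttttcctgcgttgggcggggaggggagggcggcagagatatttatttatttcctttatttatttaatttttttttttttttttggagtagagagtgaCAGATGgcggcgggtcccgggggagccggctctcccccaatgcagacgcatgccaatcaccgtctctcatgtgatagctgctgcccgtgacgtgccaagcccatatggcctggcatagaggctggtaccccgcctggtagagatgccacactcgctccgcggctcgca

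The full cAMP response element TGACGTCA was in 1 of the 36 windows, that of Gpr6, and in 1.79% of all 32851 windows of the same length. Its core TGACG, which the full element also contains, was in 5 of the 36 windows and in 20.8% of all, and TGCGTCA was in 2, those of Isl1 and Tac1, and in 2.12% of all. The direct repeat was found in the window of Rarb alone among the 36 and in 0.861% of all windows. CAGATG was in 7 of the 36 windows and in 17.2% of all. In the window of Neurod2 it overlaps TGACAG, the letters bound by MEIS factors, which were in 10 of the 36 windows and in 19.2% of all. Of the other motifs searched, TATAAA was in 6 windows (13.6% of all), TGTTTAC, a forkhead motif, in 1 (3.65%) and TGANTCA, the AP-1 motif, in 1 (7.81%). The MEF2 motif CTAAAAATA and TTCAGCACC, which is part of the REST site, were in 0 of the 36 windows and in 0.517% and 0.371% of all. These matches describe the letters and show no binding.

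The striatal genes lay higher in the cuprizone libraries than in the control libraries. All 23 had a positive log2 fold change, from 0.23 to 1.72 with a median of 1.17, beside a median of 0.02 over all genes tested. For 21 of the 23, every cuprizone library lay above every control library, as did 12.6% of all genes tested, while 17.6% had every cuprizone library below every control library. With edgeR's quasi-likelihood test over all genes, 10 of the 23 passed a Benjamini-Hochberg adjusted p of 0.05, all of them higher. Of all genes tested 7.57% passed in either direction and 1.87% passed as higher. The 23 were chosen with this comparison known, so nothing is read from these shares. These libraries cannot tell apart more cells of a type, more RNA per cell and a changed share of RNA from outside tagged ribosomes. How much neighbouring tissue was taken with the tract cannot be given.

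**Figure D1:**
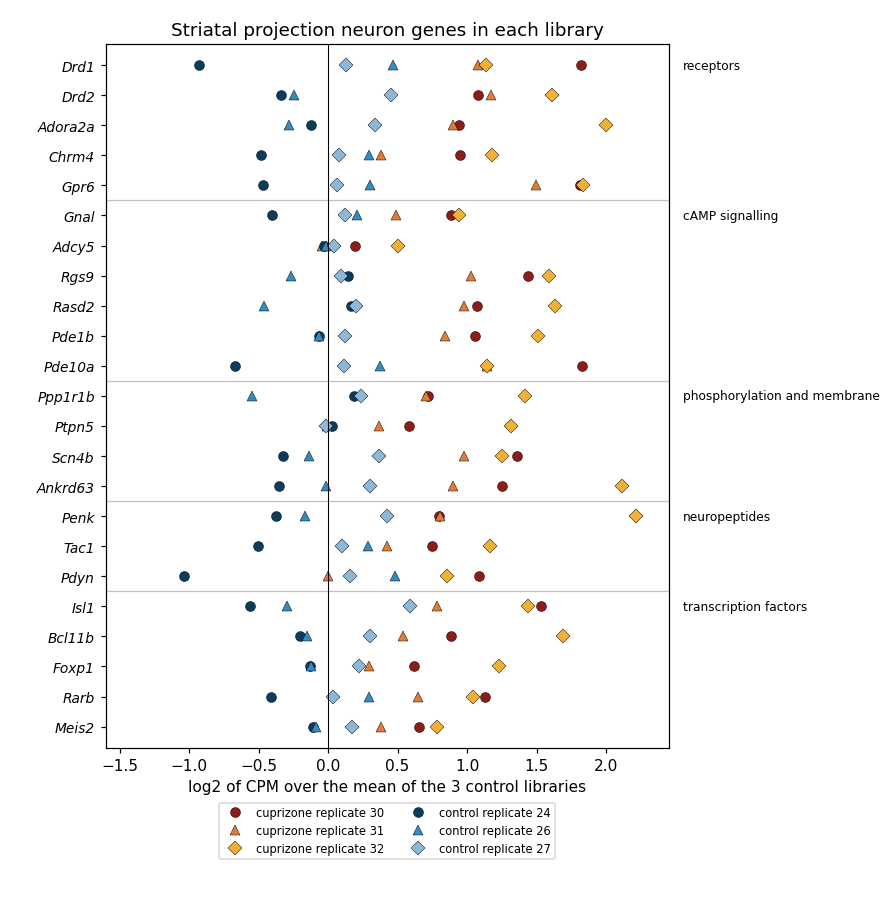
Level of the 23 striatal projection neuron genes in each library, as log2 of CPM over the mean of the 3 control libraries (x axis); each point is 1 library, and the lines separate groups of genes by role. Cuprizone points lie to the right of the control points for every gene but Adcy5 and Pdyn.

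Among the receptors, the dopamine receptor gene Drd2 (ENSMUSG00000032259, chromosome 9, 49340627 to 49408177 in GRCm38) had 24.3, 25.96 and 35.1 CPM in cuprizone replicates 30, 31 and 32, against 9.08, 9.69 and 15.7 CPM in control replicates 24, 26 and 27. Its log2 fold change was 1.31 ± 0.25 (SE, n = 3 per group), and the groups did not overlap. Log2 fold changes of further genes stand in brackets with their SE. Adora2a, which encodes the adenosine receptor of the indirect pathway, had 74.8, 72.4 and 156 CPM in the cuprizone libraries, against 35.7, 31.96 and 49.1 CPM in the control libraries (1.38 ± 0.33). Replicate 32 held the highest value of Adora2a, 2.11 times the mean of the other cuprizone libraries. Gpr6, a receptor that raises cAMP without a ligand and is typical of the indirect pathway, headed the 23 in log2 fold change, at 1.72 ± 0.22. It stood at 14.9, 11.9 and 15.1 CPM in the cuprizone libraries, against 3.07, 5.21 and 4.43 CPM in the control libraries, so the lowest cuprizone library was 2.29 times the highest control library. This gene (ENSMUSG00000046922, chromosome 10, 41069977 to 41072285) is the one whose window holds the full cAMP response element shown above.

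Drd1, the dopamine receptor of the direct pathway (ENSMUSG00000021478, chromosome 13, 54051183 to 54055705), had 46.0, 27.5 and 28.5 CPM in the cuprizone libraries, against 6.84, 18.0 and 14.3 CPM in the control libraries (1.38 ± 0.36). Its highest library was replicate 30 and not replicate 32, and its lowest was control replicate 24. Chrm4, a muscarinic receptor that lowers cAMP and is rich in direct pathway neurons, had 35.8, 24.2 and 42.2 CPM in the cuprizone libraries, against 13.3, 22.8 and 19.7 CPM in the control libraries. For Chrm4 the groups were close, with cuprizone replicate 31 at 1.06 times the highest control library.

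The genes of cAMP signalling downstream of these receptors differed among themselves in log2 fold change. Gnal, which encodes the G protein subunit that couples Drd1 and Adora2a to the cyclase, had 192, 146 and 199.7 CPM in the cuprizone libraries, against 78.6, 120.2 and 114 CPM in the control libraries (0.78 ± 0.20). Adcy5, the main striatal adenylyl cyclase, had 292, 248 and 363 CPM in the cuprizone libraries, against 251, 254 and 264 CPM in the control libraries. This was the smallest log2 fold change of the 23, 0.23 ± 0.17, and the groups overlapped. Control libraries varied little for Adcy5, with a coefficient of variation of 2.64%, and cuprizone replicate 31 was the lowest of all 6. Pde10a, a phosphodiesterase of cAMP and cGMP that is abundant in the striatum (ENSMUSG00000023868, chromosome 17, 8525372 to 8986648), had 218, 136 and 136 CPM in the cuprizone libraries, against 38.6, 79.5 and 66.5 CPM in the control libraries (1.41 ± 0.31). Pde10a was highest in replicate 30, like Drd1. Pde1b, a phosphodiesterase that calcium and calmodulin activate, had 260.1, 224 and 356 CPM in the cuprizone libraries, against 119, 119 and 136 CPM in the control libraries (1.17 ± 0.19).

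Among regulators of G protein signalling, Rgs9, which speeds the shut-off of the G proteins that Drd2 uses (ENSMUSG00000020599, chromosome 11, 109225355 to 109298129), had 87.5, 65.9 and 97.2 CPM in the cuprizone libraries, against 35.6, 26.8 and 34.5 CPM in the control libraries. Its log2 fold change was 1.37 ± 0.18, and the groups did not overlap. Rasd2, a striatal small GTPase also called Rhes, had 242, 227 and 356 CPM in the cuprizone libraries, against 129, 83.4 and 133 CPM in the control libraries (1.26 ± 0.25). Each of these genes was at least 1.71 times higher in the lowest cuprizone library than in the highest control library.

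Ppp1r1b encodes DARPP-32, a phosphatase inhibitor that integrates dopamine and glutamate signals (ENSMUSG00000061718, chromosome 11, 98348404 to 98357796). It had 671, 663 and 1088 CPM in the cuprizone libraries, against 464, 278 and 481 CPM in the control libraries (0.99 ± 0.29). Exons of 1700003D09Rik on the opposite strand overlap 460 of its 2928 exonic bases, and whether counting used the strand is not given here. Ptpn5, a tyrosine phosphatase of striatal synapses, had 126, 109 and 211 CPM in the cuprizone libraries, against 86.1, 84.0 and 83.9 CPM in the control libraries. The control libraries of Ptpn5 were close to each other, with a coefficient of variation of 1.49%, and the spread lay in the cuprizone group. Scn4b, a sodium channel subunit, had 331, 254 and 307 CPM in the cuprizone libraries, against 103, 117 and 167 CPM in the control libraries (1.20 ± 0.21), and here replicate 32 did not stand out. For Ankrd63, named for its ankyrin repeats, the values were 46.6, 36.4 and 84.5 CPM in the cuprizone libraries and 15.3, 19.3 and 24.1 CPM in the control libraries, and replicate 32 was 2.04 times the mean of the other cuprizone libraries.

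The neuropeptide genes varied from library to library. Penk, the precursor of enkephalins, which indirect pathway neurons release, had 283, 285 and 759 CPM in the cuprizone libraries, against 126, 145 and 219 CPM in the control libraries. Its log2 fold change of 1.44 ± 0.43 became 0.80 without cuprizone replicate 32, which held 2.67 times the mean of the other cuprizone libraries. Tac1, the precursor of substance P in direct pathway neurons, had 32.1, 25.7 and 42.9 CPM in the cuprizone libraries, against 13.5, 23.3 and 20.5 CPM in the control libraries (0.81 ± 0.26). Pdyn, the precursor of dynorphins, also of the direct pathway, had 45.5, 21.5 and 38.8 CPM in the cuprizone libraries, against 10.5, 30.04 and 23.9 CPM in the control libraries. The groups overlapped for Pdyn, since cuprizone replicate 31 was below control replicates 26 and 27, and its log2 fold change was 0.71 ± 0.41. Exons of A830012C17Rik on the opposite strand overlap 233 of the 1634 exonic bases of Penk.

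Transcription factors of the striatum had log2 fold changes from 0.61 to 1.28. Bcl11b, also called Ctip2, had 94.5, 74.3 and 165 CPM in the cuprizone libraries, against 44.4, 46.1 and 63.0 CPM in the control libraries (1.12 ± 0.31). Foxp1, a forkhead factor, had 88.4, 70.5 and 134.5 CPM in the cuprizone libraries, against 52.5, 52.9 and 67.2 CPM in the control libraries (0.77 ± 0.24). Meis2, a homeobox factor of striatal progenitors and neurons, had 99.8, 82.7 and 109 CPM in the cuprizone libraries, against 59.1, 59.9 and 71.8 CPM in the control libraries, with the lowest log2 fold change of the 5 factors, 0.61 ± 0.15. In all 3 of these genes the lowest cuprizone library was 1.05 to 1.18 times the highest control library. Rarb, a retinoic acid receptor whose promoter window holds the direct repeat shown above, had 20.02, 14.4 and 18.9 CPM in the cuprizone libraries, against 6.90, 11.2 and 9.38 CPM in the control libraries (0.95 ± 0.22). Exons of Top2b on the opposite strand overlap 1793 of the 5265 exonic bases of Rarb, and reads of the 2 genes cannot be told apart there without strand. Isl1, a homeobox factor of direct pathway and cholinergic neurons, was the rarest, with 3.02, 1.80 and 2.83 CPM in the cuprizone libraries, against 0.707, 0.85 and 1.57 CPM in the control libraries (1.28 ± 0.38). Foxp1 shares 300 of its 13751 exonic bases with the predicted gene Gm20696 on the same strand, and Gnal shares 852 of 11172 with Mppe1 on the opposite strand.

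Which library was highest differed from gene to gene, also within the direct pathway. Genes of the indirect pathway (Drd2, Adora2a, Gpr6 and Penk) had mean log2 levels, relative to the control libraries, of 1.18, 1.12 and 1.94 in cuprizone replicates 30, 31 and 32, against -0.29, -0.07 and 0.35 in control replicates 24, 26 and 27. Genes of the direct pathway (Drd1, Chrm4, Tac1 and Pdyn) had 1.22, 0.55 and 1.16 in the cuprizone libraries, against -0.65, 0.46 and 0.19 in the control libraries. Drd1 and Pdyn were highest in replicate 30, and Chrm4 and Tac1 in replicate 32, like every gene of the indirect set. Neither set overlapped between the groups, but for the direct pathway control replicate 26, at 0.46, lay just below cuprizone replicate 31, at 0.55. The ratio of Drd2 to Drd1 counts was 0.53, 0.95 and 1.23 in the cuprizone libraries, against 1.33, 0.54 and 1.10 in the control libraries. The groups overlapped in this ratio, and its lowest value in each group came from replicate 30 and replicate 26. These sets of 4 were drawn up after the values had been seen and carry no test.

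**Figure D2:**
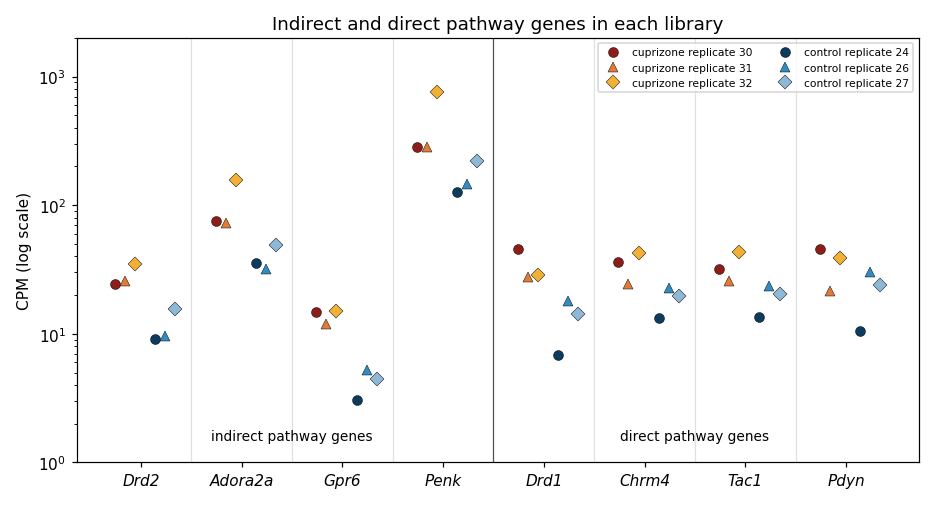
CPM on a log scale of 4 indirect and 4 direct pathway genes (x axis), with 1 point per library, cuprizone libraries left of control libraries within each gene. All 4 indirect pathway genes peak in cuprizone replicate 32, as do Tac1 and Chrm4 of the direct pathway, while Drd1 and Pdyn peak in cuprizone replicate 30. Control replicate 24 is the lowest library for all 4 direct pathway genes and for Drd2, Gpr6 and Penk of the indirect pathway.

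Most of the striatal genes listed outside the 23 also lay higher in the cuprizone libraries. A list of 26 further striatal genes had 25 in the table and 24 that passed the filter, and 9 of these 24 rose and 0 fell with edgeR, where 1.87% of all genes tested rose and 5.7% fell. All 24 had positive log2 fold changes, with a median of 1.10, beside 0.02 over all genes tested, and in 17 every cuprizone library was above every control library, as in 12.6% of all genes tested. The gene that missed the filter was Drd3. The groups overlapped for 7 of the 24, and the smallest log2 fold change was 0.05. This list, too, was drawn up with earlier results of these libraries known, so nothing is read from its shares. The smallest adjusted p was that of Rasgrp2, an exchange factor for Rap GTPases, with 32.01, 28.1 and 37.5 CPM in the cuprizone libraries, against 13.9, 15.2 and 15.1 CPM in the control libraries (1.14 ± 0.14, adjusted p = 0.00418 with edgeR). Rasgrp2 kept an adjusted p under 0.05 in edgeR with each of the 6 libraries left out in turn, at up to 0.0271.

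Actn2, an actinin of dendritic spines, rose by 1.37 ± 0.21 on the log2 scale (adjusted p = 0.0101 with edgeR, 0.0518 without control replicate 26). Arpp21, a phosphoprotein regulated by cAMP, had 182, 146 and 249.4 CPM in the cuprizone libraries, against 71.6, 103 and 101 CPM in the control libraries, and rose by 1.07 ± 0.23 (adjusted p = 0.0383 with edgeR, up to 0.112 and above the threshold when any 1 control library or cuprizone replicate 30 was left out). Sh3rf2, Zfp503, Ido1, Pde7b and Rxrg also rose, and their log2 fold changes lay between 0.72 and 1.69. Sh3rf2 lost its call without control replicate 26 or any 1 cuprizone library, Zfp503 without control replicate 26 or 27 or cuprizone replicate 30, and Rxrg without any 1 control library or cuprizone replicate 31. Ido1 lost it without each library but cuprizone replicate 31 and with limma-voom, and Pde7b without each of the 6. The adjusted p then reached 0.0692 (Zfp503) to 0.147 (Ido1) in edgeR. Hpca, a calcium sensor of striatum, hippocampus and cortex, had 461, 479 and 1531 CPM in the cuprizone libraries, against 366, 277 and 417 CPM in the control libraries, and did not pass (adjusted p = 0.189 with edgeR). Gng7, the G protein gamma subunit that pairs with the product of Gnal, had 273, 284 and 517 CPM in the cuprizone libraries, against 341, 225 and 282 CPM in the control libraries, with overlap (adjusted p = 0.527 with edgeR). The count of risers was 5, 2 and 4 without control replicate 24, 26 or 27, 4 without cuprizone replicate 30, 9 without cuprizone replicate 31, 7 without cuprizone replicate 32 and 17 with DESeq2. Over all genes, the count of risers in the same fits was 157, 73, 65, 91, 274, 464 and 830.

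**Figure D3:**
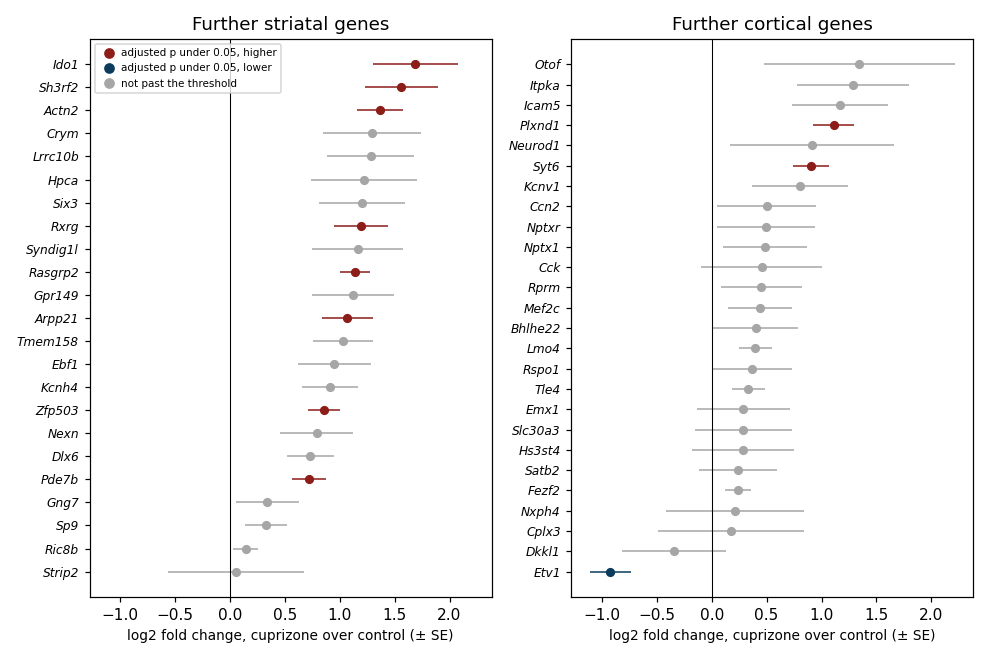
Log2 fold change (cuprizone over control) with its SE for 23 of the 24 further striatal genes tested (left) and 26 further cortical genes (right), ordered by size. Coloured points passed an adjusted p of 0.05 in edgeR's test over all genes, 8 of the striatal genes drawn and 3 of the cortical genes.

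Partners of cAMP signalling that are expressed in many cells had a median log2 fold change of 0.33 over 19 tested genes, but 0.10 without cuprizone replicate 32 and 0.21 without control replicate 26. In edgeR 2 rose and 1 fell, where 1.87% of all genes tested rose and 5.7% fell. The risers, Arpp21 and Pde7b, also belong to the further striatal list. Pde4b, a phosphodiesterase of many brain cells, fell by 0.84 on the log2 scale, with 96.8, 129.7 and 78.7 CPM in the cuprizone libraries, against 179, 189 and 179.6 CPM in the control libraries (adjusted p = 0.041 with edgeR, up to 0.142 and no call when any 1 control library or cuprizone replicate 30 was left out). Gnas, which encodes the G protein subunit that other cells use in place of that from Gnal, had 1165, 1239 and 1356 CPM in the cuprizone libraries, against 1241, 1162 and 1292 CPM in the control libraries. Ppp3ca, the catalytic subunit of calcineurin, which acts on DARPP-32, had 573, 435 and 901 CPM in the cuprizone libraries, against 288, 361 and 368 CPM in the control libraries (adjusted p = 0.108 with edgeR).

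Most of the cortical genes overlapped between the groups, and 6 of the 8 were highest in 1 library, cuprizone replicate 32. Of the 8, 7 had positive log2 fold changes and 1 a negative one, with a median of 0.37. With edgeR 0 passed and 1 had an unadjusted p under 0.05, where 7.57% and 23.3% of all genes tested did. The 8 were chosen with this comparison known, so nothing is read from these counts. DESeq2 called 1 of the 8 lower, in a fit of 23436 genes in which it called more genes lower than the 945 of edgeR. Nothing is read from that call either. The groups overlapped for 7 of the 8, where 30.2% of all genes tested had no overlap. Without cuprizone replicate 32 the median was -0.23 and 6 of the 8 were negative, so the sign of the median rests on that library. Without any other single library it lay between 0.23 and 0.63.

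Slc17a7, the vesicular glutamate transporter of cortical neurons (ENSMUSG00000070570, chromosome 7, 45163949 to 45176142), had 349, 282 and 792 CPM in the cuprizone libraries, against 290.2, 351 and 515 CPM in the control libraries. Camk2a, the kinase of excitatory synapses, had 799.7, 703 and 2312 CPM in the cuprizone libraries, against 848, 718 and 849.5 CPM in the control libraries. Nrgn, which encodes the calmodulin-binding protein neurogranin, had 756, 914 and 2593 CPM in the cuprizone libraries, against 995, 646 and 1482 CPM in the control libraries. In all 3 genes replicate 32 was far above the other cuprizone libraries, by 2.51, 3.08 and 3.11 times their mean, and those other libraries lay within or close to the range of the control libraries.

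The transcription factors of cortical neurons split. Neurod2 (ENSMUSG00000038255, chromosome 11, 98325415 to 98329648) had 29.6, 24.7 and 102 CPM in the cuprizone libraries, against 34.3, 29.8 and 50.4 CPM in the control libraries. Its relative Neurod6 had 13.1, 10.0 and 56.8 CPM in the cuprizone libraries, against 6.01, 12.5 and 10.4 CPM in the control libraries, and replicate 32 was 4.91 times the mean of the other cuprizone libraries. Tbr1, a factor of deep layers, had 43.4, 36.5 and 77.0 CPM in the cuprizone libraries, against 32.7, 41.4 and 60.9 CPM in the control libraries. These 3 were highest in replicate 32, whereas the genes of the middle and upper layers were lowest there. Cux2, an upper layer factor, had 41.8, 38.3 and 33.0 CPM in the cuprizone libraries, against 47.0, 69.4 and 57.7 CPM in the control libraries, with no overlap (-0.62 ± 0.17). Rorb, a factor of the layer that receives thalamic input, which astrocytes also express, had 96.6, 102 and 50.6 CPM in the cuprizone libraries, against 66.3, 82.2 and 93.0 CPM in the control libraries. A list of 8 astrocyte markers was also lowest in replicate 32, with mean log2 levels, relative to the control libraries, of 0.22, 0.34 and -0.67 in the cuprizone libraries and 0.04, 0.02 and -0.06 in the control libraries. None of these markers was at 0, they summed to 15584 to 29939 CPM in cuprizone and 21983 to 24773 CPM in control libraries, and their part in the level of Rorb was not tested.

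**Figure D4:**
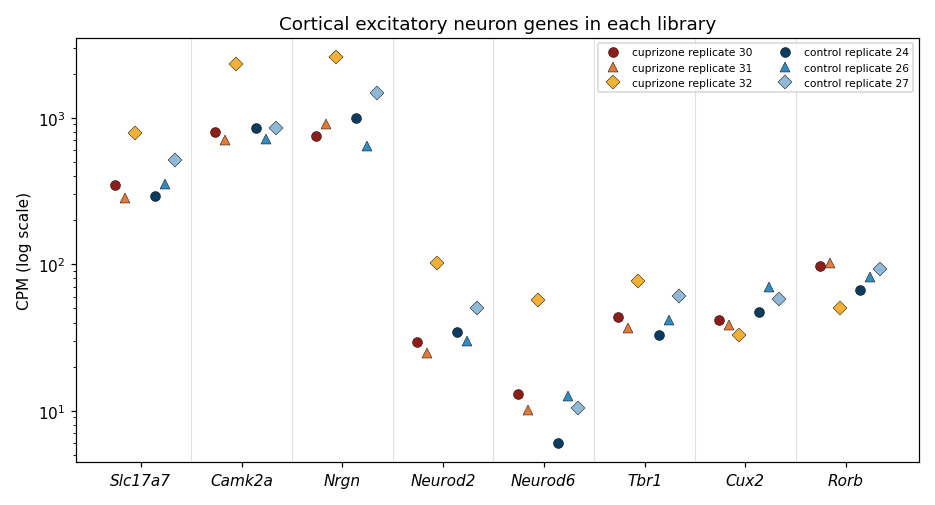
CPM on a log scale of the 8 cortical excitatory neuron genes (x axis), 1 point per library, with cuprizone libraries left of control libraries within each gene. Cuprizone replicate 32 is the highest of the 6 libraries for 6 genes and the lowest for Cux2 and Rorb.

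The median of further cortical genes also depended on replicate 32, whereas their calls held without it. Of 26 tested, 2 rose and 1 fell with edgeR, where 1.87% of all genes tested rose and 5.7% fell. The median log2 fold change was 0.42, and it was -0.06 without cuprizone replicate 32. Plxnd1, a semaphorin receptor that direct pathway neurons of the striatum also use, had 55.0, 45.3 and 53.6 CPM in the cuprizone libraries, against 23.9, 29.2 and 18.2 CPM in the control libraries. It rose by 1.11 ± 0.19 on the log2 scale (adjusted p = 0.0146 with edgeR), a call lost without control replicate 24 or cuprizone replicate 30, with p up to 0.062. Syt6, a synaptotagmin of deep layers, rose by 0.90 ± 0.16 (adjusted p = 0.0182 with edgeR, and as high as 0.0766 with control replicate 24, control replicate 26 or cuprizone replicate 30 absent). Etv1, a factor of output neurons in a deep layer, fell (-0.92 ± 0.19) and had 20.96, 26.6 and 15.8 CPM in the cuprizone libraries, against 40.8, 40.0 and 39.6 CPM in the control libraries (adjusted p = 0.029 with edgeR, up to 0.105 and no call when any 1 control library or cuprizone replicate 30 was left out). The most abundant, Nptxr, a neuronal pentraxin receptor, had 261, 209 and 623 CPM in the cuprizone libraries, against 169.9, 341 and 266 CPM in the control libraries, again highest in replicate 32.

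Hippocampal and septal markers gave 1 faller and 0 risers among 10 tested genes in edgeR, where 5.7% of all genes tested fell and 1.87% rose. Their median log2 fold change was 0.61, but 0.04 without cuprizone replicate 32 and 0.40 without control replicate 24. Prox1, a homeobox factor of dentate granule cells that oligodendrocytes and their progenitors also express, had 23.3, 42.4 and 15.5 CPM in the cuprizone libraries, against 79.0, 96.1 and 84.4 CPM in the control libraries (adjusted p = 0.0297 with edgeR, up to 0.115 and no call when any 1 control library or cuprizone replicate 30 was left out). Wfs1, an endoplasmic reticulum protein rich in hippocampal and striatal neurons, had 118, 113 and 303 CPM in the cuprizone libraries, against 94.3, 105 and 88.1 CPM in the control libraries. Fibcd1, a marker of hippocampal pyramidal cells that is named after its values were seen, had 10.9, 8.64 and 103 CPM in the cuprizone libraries, against 6.72, 9.52 and 8.10 CPM in the control libraries, so that replicate 32 stood alone.

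Genes shared by most neurons overlapped between the diets with 1 exception. Of 26 pan-neuronal genes 0 passed in either direction with edgeR, limma-voom or DESeq2, and 1 had an unadjusted p under 0.05 in edgeR. Of all genes tested 7.57% passed with edgeR and 23.3% had such an unadjusted p. The groups did not overlap for 1 of the 26, Rtn1, named after its values were seen, where 30.2% of all genes tested had no overlap. Log2 fold changes were positive for 25 of the 26, and the median was 0.39. This median was 0.13 without cuprizone replicate 32 and 0.19 without control replicate 24. Control replicate 24 was the lowest library for 21 of the 26, as it was for 17 of the 23 striatal genes. The mean log2 level of the 26, relative to the control libraries, was 0.36, -0.07 and 0.73 in cuprizone replicates 30, 31 and 32. In control replicates 24, 26 and 27 this level was -0.41, 0.26 and 0.15. Set against that level in the same library, the 23 striatal genes stood at 0.73, 0.81 and 0.67 in the cuprizone libraries, against 0.14, -0.23 and 0.08 in the control libraries, with no overlap. The further striatal genes stood at 0.49, 0.73 and 0.66 in the cuprizone libraries, against 0.32, -0.37 and 0.04 in the control libraries, also with no overlap. For the 8 cortical genes the same difference was -0.42, -0.14 and 0.20 in the cuprizone libraries, against 0.16, -0.32 and 0.15 in the control libraries, and the groups overlapped. All these lists were drawn up with earlier results of these libraries known, so the differences are a description and carry no test.

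Interneuron genes did not pass the test in either direction. Of 14 tested, 0 passed with edgeR and 3 had an unadjusted p under 0.05, where 7.57% and 23.3% of all genes tested did. Their median log2 fold change was -0.09. Its sign turned without control replicate 26, at 0.39, and without cuprizone replicate 32, at 0.10, and it was -0.36 without cuprizone replicate 30. Gad1, which makes GABA and is also expressed by striatal projection neurons, had 271, 131 and 100.3 CPM in the cuprizone libraries, against 76.04, 249.7 and 113 CPM in the control libraries. Kcnc2, a potassium channel of fast-spiking interneurons that is named after its values were seen, had 106, 53.2 and 25.1 CPM in the cuprizone libraries, against 30.4, 134.1 and 51.8 CPM in the control libraries. In both genes replicate 30 and replicate 26 were the highest of their groups. This did not hold for every gene of the list, since Sst, Npy, Cort and Chat were highest in replicate 31 among the cuprizone libraries. Sst, the peptide of another interneuron class, had 229, 246 and 146 CPM in the cuprizone libraries, against 233, 417 and 275 CPM in the control libraries, lowest in replicate 32. Npy, the gene of neuropeptide Y, had 61.5, 76.9 and 60.2 CPM in the cuprizone libraries, against 86.2, 91.2 and 97.8 CPM in the control libraries (-0.47 ± 0.13, adjusted p = 0.0834 with edgeR). Cort, which encodes cortistatin, a relative of Sst, had 2.25, 3.25 and 2.12 CPM in the cuprizone libraries, against 3.60, 6.35 and 5.01 CPM in the control libraries (-0.97 ± 0.29, adjusted p = 0.0954 with edgeR). For both of these every cuprizone library lay below every control library, as in 17.6% of all genes tested. Chat, which marks cholinergic interneurons, had 4.42, 5.09 and 1.70 CPM in the cuprizone libraries, against 0.589, 0.737 and 1.92 CPM in the control libraries, with overlap (1.78 ± 0.57, adjusted p = 0.115 with edgeR).

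**Figure D5:**
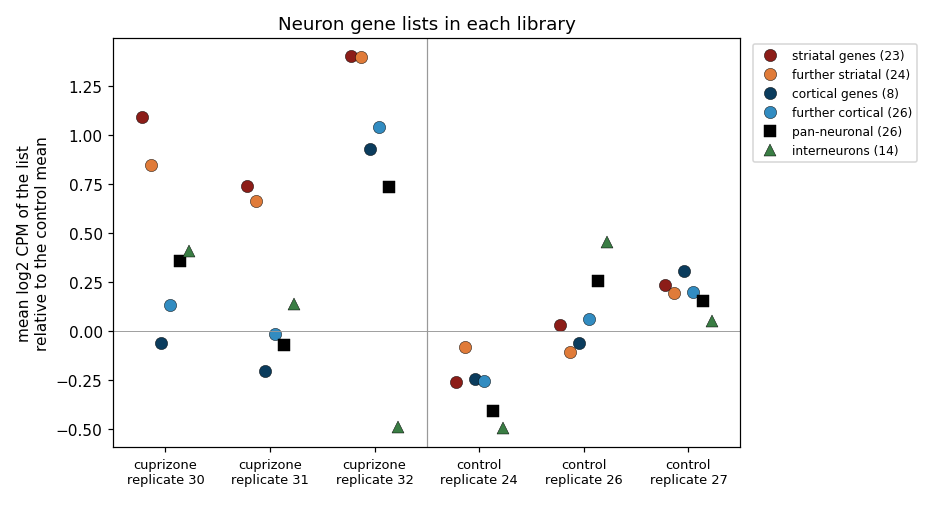
Mean log2 CPM of 6 gene lists in each library (y axis) relative to the mean of the control libraries, with the number of tested genes in brackets and cuprizone libraries on the left. Both striatal lists lie above 0.6 in all 3 cuprizone libraries, while the cortical lists do so in replicate 32 alone.

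Neuroblast markers, which cells of the neighbouring subventricular zone express and for which Meis2 is also known, gave 0 risers and 0 fallers of 10 with edgeR. Of all genes tested 1.87% rose and 5.7% fell. An unadjusted p under 0.05 in edgeR was found for 1 of the 10 and for 23.3% of all genes tested. The median of the 10 was -0.15 (-0.29 without control replicate 26, 0.04 without control replicate 27). The smallest adjusted p was that of Cd24a, a surface protein, with 30.8, 12.5 and 23.3 CPM in the cuprizone libraries, against 10.3, 5.95 and 10.9 CPM in the control libraries and no overlap (1.30 ± 0.36, adjusted p = 0.0838 with edgeR). Markers of other cells also stood apart in replicate 32. The 8 microglia markers summed to 1617 to 3627 CPM in cuprizone and 1121 to 2128 CPM in control libraries, the 8 endothelial and mural markers to 60.9 to 153 CPM and 56.7 to 63.1 CPM, and both sums were highest in replicate 32. The endothelial and mural markers had a median log2 fold change of 1.15, with 7 of 8 positive, and of 0.54 without replicate 32. The 8 progenitor markers summed to 1571 to 2831 CPM in cuprizone and 2672 to 3137 CPM in control libraries and were lowest there. Ependymal and choroid plexus markers, 10 genes with Ttr among them, summed to 152 to 388 CPM in cuprizone and 117 to 4724 CPM in control libraries, the highest in control replicate 27. With edgeR 0 genes passed on any of these 4 lists or on the astrocyte list, where 7.57% of all genes tested passed. Unadjusted p-values under 0.05 in edgeR were found for 3 endothelial and mural markers alone, and for 23.3% of all genes tested. The part of these shifts in the levels of the neuron genes was not tested.

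Genes differed in how far replicate 32 stood above its group. Over the 23 striatal genes its CPM was 0.77 to 2.67 times the mean of the other cuprizone libraries, with a median of 1.40, and it was at least 2 times higher for 3 of them. Over the 8 cortical genes it was 0.51 to 4.91 times that mean, with a median of 2.79, and at least 2 times higher for 5. Among all genes tested 5.30% were at least 2 times higher. Without replicate 32 all 23 striatal genes kept a positive log2 fold change, from 0.08 for Adcy5 to 1.66 for Gpr6, with a median of 0.91. In that fit 10 of them passed as higher with edgeR, as did 464 of all 16735 genes tested. With another library left out, 2 to 11 of the 23 passed, and 65 to 274 of all genes tested passed as higher.

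Per kilobase of exon the levels of the 31 genes spanned a wide range. Nrgn was the highest, at 978 ± 701 CPM per kilobase in cuprizone libraries and 717 ± 289 CPM per kilobase in control libraries (SD, n = 3 each). Ppp1r1b came second at 276 ± 83.0 CPM per kilobase in cuprizone and 139 ± 38.4 CPM per kilobase in control libraries, and Penk, at 271 ± 168 and 100.1 ± 29.9 CPM per kilobase in cuprizone and control libraries, differed from it by less than the spread. Camk2a (170.3 ± 121 CPM per kilobase in cuprizone, 108 ± 10.1 in control libraries) and Slc17a7 (88.0 ± 51.3 and 71.5 ± 21.6) came next in cuprizone libraries. In control libraries Camk2a was above Penk, by less than the spread. Drd2, at 11.2 ± 2.28 CPM per kilobase in cuprizone and 4.51 ± 1.44 in control libraries, and Drd1, at 9.37 ± 2.87 and 3.59 ± 1.56, lay within each other's spread. Isl1 was the lowest at 0.644 ± 0.166 CPM per kilobase in cuprizone and 0.264 ± 0.117 in control libraries.

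Outside the 31 genes, those whose levels over the 6 libraries were most like the mean of the 23 striatal genes included Sez6, Smpd3, Armc2, Lingo3, Rem2, Arpp21, Extl1, Mchr1 and Dclk3, with Pearson r of 0.982 to 0.997 among 1802 genes compared. Sez6, a membrane protein of neurons, came first, with 173, 126 and 219.6 CPM in the cuprizone libraries, against 63.6, 81.2 and 86.1 CPM in the control libraries. Arpp21 is on the further striatal list. The genes most like the 8 cortical genes included Nr2f2, Cacnb3, Lin7b, Lor, Egfl7, Stx1a, Ipcef1, Cck and Cbfa2t3, with r of 0.966 to 0.988. Stx1a, which encodes a syntaxin that presynaptic vesicles fuse through, had 65.9, 63.6 and 158 CPM in the cuprizone libraries, against 65.3, 83.5 and 94.2 CPM in the control libraries, and was highest in replicate 32. These r values describe likeness over 6 libraries that share their groups and their scaling, and carry no test.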

How the data were processed

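RNA pulled down with tagged ribosomes was measured in 6 libraries (3 cuprizone, 3 control). The deposited file holds raw read counts per Ensembl gene, 1 column per library, matched to samples by title. bcl2fastq 2.17 and the build mm10 come from the submitters' processing notes. The sources used here do not name the aligner, counter, annotation or use of strand. Symbols, coordinates (1-based, whole gene) and exonic lengths came from GENCODE M21 on GRCm38 (mm10), which matched 37693 of 39017 identifiers.

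The deposited counts were fitted with edgeR 4.0.16 (R 4.3.3): filterByExpr (minimum count 10, total 15), TMM, estimateDisp, glmQLFit (robust) and glmQLFTest, a 2-sided test, p adjusted by Benjamini-Hochberg across the 16569 genes, threshold 0.05. Standard errors are the log2 fold change over the square root of F. List levels are means of log2 CPM (prior count 2). With 3 against 3 libraries a permutation cannot give p under 0.1, so none was run. Alternatives were RLE, upper-quartile and TMM scaling without oligodendrocyte markers and the 20 most abundant genes, other filters, DESeq2 1.42.0, limma-voom (limma 3.58.1) and leaving out each library.

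Replicates differed by more than sampling noise (chi-square per degree of freedom at least 24.4 within a group), with cuprizone replicate 32 at 85.1 and 101 against replicates 30 and 31. The genes and lists were chosen with earlier results of these data known. Genes named outside the 31 are the 3 of a list with the smallest adjusted p, the 3 with the highest mean and the 10 most alike (mean of at least 5 CPM, SD of log2 CPM of at least 0.5, no predicted genes, Riken clones or pseudogenes); not all are printed, and some items are not reported here. Some further genes (Fibcd1, Kcnc2, Rtn1, Drd3 and the remaining risers of the further striatal list) were named after their values were seen.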

Additional observations from a re-analysis of the deposited data

How the results depend on the processing

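No paired analysis was possible because the groups share no replicate numbers. DESeq2 gave more calls than edgeR, with 830 genes higher over the whole table (310 with edgeR). It also called more genes lower than the 945 of edgeR, in a fit of 23436 genes. It called 21 of the 23 striatal genes and 17 of the further striatal genes higher. Of the further cortical genes it called 4 higher, and of the 8 cortical genes 1 lower. With 1 library left out in turn, the genes called over the whole table ran from 65 to 464 higher and from 474 to 963 lower, and the striatal genes called higher from 2 to 11. The further striatal genes called higher ran from 2 to 9, the further cortical genes from 0 to 2 higher and from 0 to 1 lower. The lists' median log2 fold changes ran from 0.91 to 1.30 (striatal genes), 0.75 to 1.23 (further striatal), -0.23 to 0.63 (cortical genes) and -0.058 to 0.61 (further cortical), each lowest without cuprizone replicate 32. Fewer samples enter such fits, and the cause was not tested beyond that. Of 403 values of single members under 13 alternatives, 400 moved by less than 1 SD between replicates and 3 moved by more, all without replicate 32 (Camk2a, Neurod2 and Neurod6). Scaling, filters and limma-voom left each of the counts and medians given here for all genes, the 31 genes, the further striatal and cortical genes and the pan-neuronal genes within 1.5 times or 1 SD of its value. With 12 to 67 counts per library, Isl1 is the member most limited by depth.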
